A study of Mus musculus with 16 samples.

Results

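The genes described here are 51 genes of mitosis and chromosome segregation, chosen by symbol from what is known of the process. They were followed in back skin after transgenic TERT was withdrawn in iK5-TERT mice. Of the 51, 50 were measured and passed the filter on low values, with 118 probe sets, 90 of them tested. Ccnb1 was not analysed here, because no probe set carried its symbol in the annotation used. These 50 were read within a fit of 12580 genes, in which the probe set of highest mean stood for its gene.

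The TERT-off cohort was 2 iK5-TERT (K5tTA-tetop-TERT) mice injected with doxycycline (8 µg/g body weight), and the TERT-on cohort was 2 mice of the same genotype injected with PBS. In both cohorts doxycycline in the drinking water (5 µg/ml) kept the transgene silent until postnatal day 10-21, and the skin was labelled as anagen at day 60. Biopsies of 3 cm2 without the subcutaneous fat were taken at 0, 6, 12 and 24 h, so that there were 16 arrays, 2 in each of 8 groups. The tTA is driven by the keratin 5 promoter, that is, in basal keratinocytes and the outer root sheath, whereas each biopsy held epidermis, follicles, dermis and the cells within them. Arrays that shared a replicate number within a cohort were treated as coming from the same mouse. The labels describe the 0 h skin of TERT-off mice as injected too, and it was read as the baseline. All values are dChip intensities on a linear scale, and differences are TERT-off minus TERT-on on a log2 scale. Levels of different probe sets were not compared, since an intensity depends on the probe.

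Mitosis is driven by CDK1 with its cyclins and by the Polo-like and Aurora kinases. Kinetochores join chromosomes to the spindle, and the spindle checkpoint holds the anaphase-promoting complex in check until all are attached, after which separase opens cohesin and cytokinesis divides the cell. Transcripts for much of this machinery accumulate only in G2 and M phase, under the MYBL2-MuvB and FOXM1 factors, so that in a tissue their levels follow the cells that are about to divide. In anagen skin the dividing cells lie mainly in the hair matrix, the outer root sheath and the basal epidermis. In a biopsy, fewer dividing cells and less RNA per cell cannot be told apart.

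Averaged over 6, 12 and 24 h, 32 of 50 mitosis genes were lower in TERT-off skin and 0 were higher (limma with the mouse as a random block, Benjamini-Hochberg adjusted p under 0.05). The comparison set 6 arrays of 2 mice against 6 arrays of 2 mice. The fit pooled the spread over all 8 groups, with a correlation of 0.0728 between arrays of 1 mouse. Its p-values thus treat the arrays of 1 mouse as nearly independent and say little about the spread among animals. Among all genes, 12.6% were called lower and 16.9% higher. The difference was negative for 49 of the 50, with a median of -0.67, against 0.04 over all genes. At an unadjusted p under 0.05, 43 were lower, against 19.1% of all genes. The difference between cohorts was at least 2-fold in 7 of the genes called lower, against 408 of all 12580 genes. These were Mybl2 (4.45-fold lower, on 1 of 2 probe sets), Nek2 (2.46-fold), Ube2c (2.22-fold), Cdc20 (2.19-fold), Aurkb (2.13-fold), Cdc25c (2.08-fold) and Melk (2.06-fold). The 7 depend on the probe set that stood for the gene. Further probe sets of Nek2 (-0.84), Aurkb (-0.98) and Cdc20 (-0.91) were lower by less than 2-fold. Outside the 7, further ones of Cdca8 (-1.07 and -1.05), Kif11 (-1.10), Ncapg (-1.06) and Kif22 (-1.01) were lower by more. Part of the difference of the 7 genes was present at 0 h, where it ran from -0.01 (Ube2c) to -0.79 (Nek2). Within the TERT-off mice, the mean of 6 to 24 h minus 0 h ran from -0.58 (Ube2c) to -1.01 (Mybl2). Leaving out 1 mouse leaves that cohort with 1, assumed to vary like the other cohort. Without TERT-on replicate 1, 2 genes were called lower (0.82% of all genes), and without TERT-on replicate 2, 0 were called (0.0561%), while the median was -0.72 and -0.64. Without TERT-off replicate 1, 38 genes were called lower (8.56% of all genes), and without TERT-off replicate 2, 41 (17.6%).

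**Figure D1:**
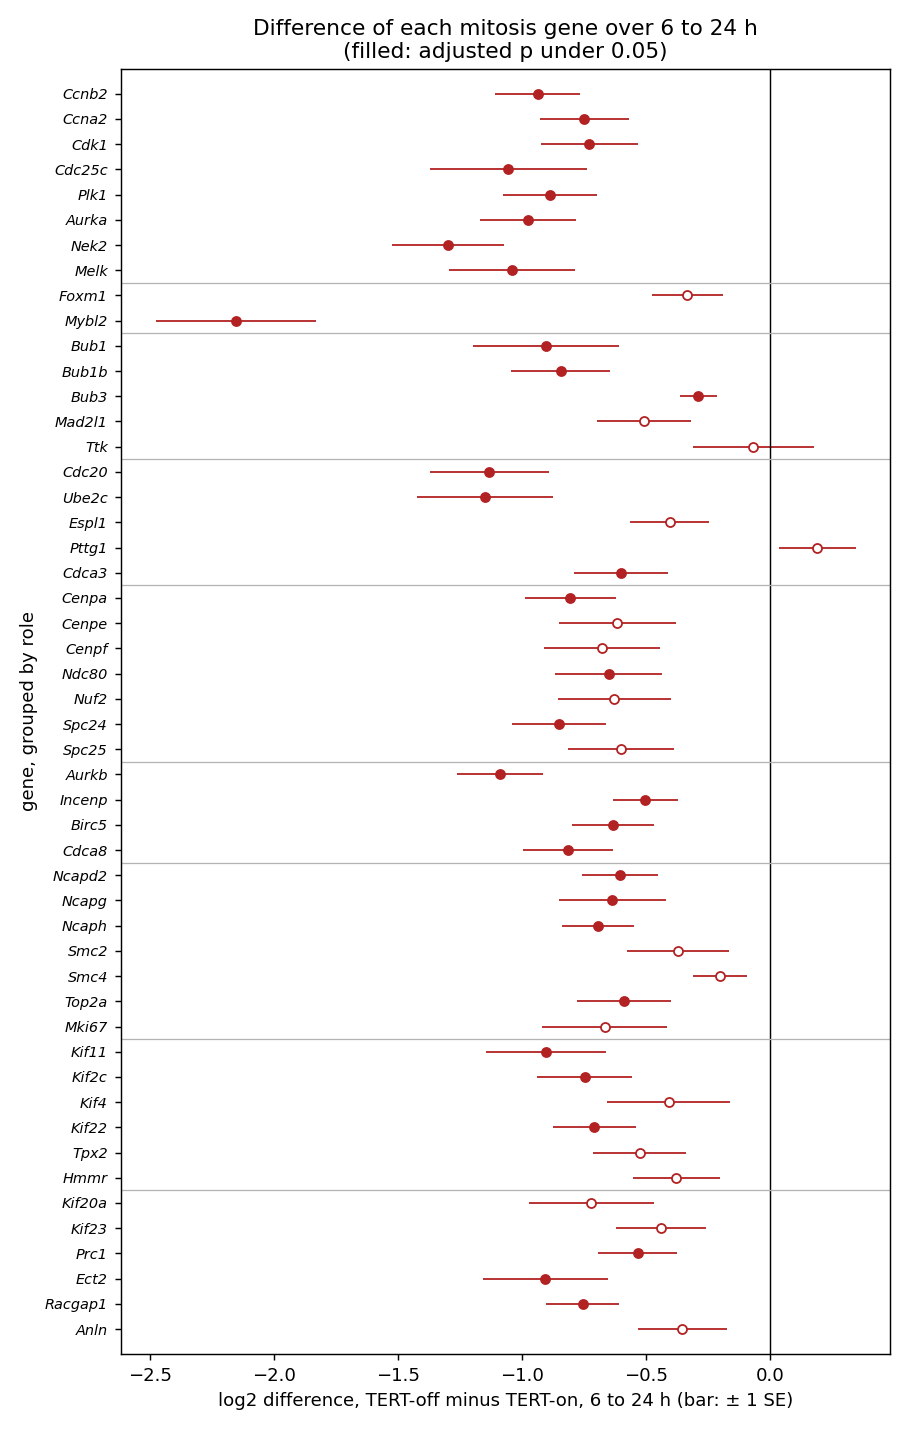
Log2 difference of each of 50 mitosis genes, TERT-off minus TERT-on averaged over 6 to 24 h, with bars of 1 SE and the genes grouped by role. Filled points are the 32 genes with an adjusted p under 0.05; all 32 lie left of 0, and only Pttg1 lies right of it.

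The time course was not the same in the mice. The mean log2 intensity of the 50 genes was 7.72, 6.91, 6.58 and 7.28 at 0, 6, 12 and 24 h for TERT-off replicate 1, and 7.52, 7.75, 6.65 and 6.59 in TERT-off replicate 2. It was, for TERT-on replicate 1, 7.81, 7.46, 7.39 and 7.98, and for TERT-on replicate 2 it was 7.70, 7.61, 7.70 and 7.79. TERT-off replicate 1 was thus already low at 6 h and TERT-off replicate 2 was not, both lay below every TERT-on array at 12 h, and at 24 h only TERT-off replicate 1 had moved back up. Compared with its own 0 h biopsy, TERT-off replicate 1 was lower at 6 h in 50 of 50 genes (49% of all genes were), whereas TERT-off replicate 2 was higher in 42 of 50 (49.1% of all genes were). At 12 h both TERT-off mice were below their 0 h level in 48 of 50 genes, against 28% of all genes, and at 24 h in 45 of 50, against 30.5%. From 12 to 24 h, 47 of 50 genes moved up in TERT-off replicate 1, with a median step of 0.73, and 22 of 50 in TERT-off replicate 2, with a median step of -0.05. TERT-on replicate 1 also dipped, by a median of -0.46 at 12 h against its own 0 h. Of the 49 genes measured at both times, 47 then moved up by 24 h (median step 0.65). The 0 h array of that mouse had a ratio of 5' to 3' Gapdh signal of 0.0599, against 0.977 to 1.12 on the others. The part of RNA quality in the dip was not tested. TERT-on replicate 2 stayed within -0.12 and 0.05 of its 0 h level in the median.

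**Figure D2:**
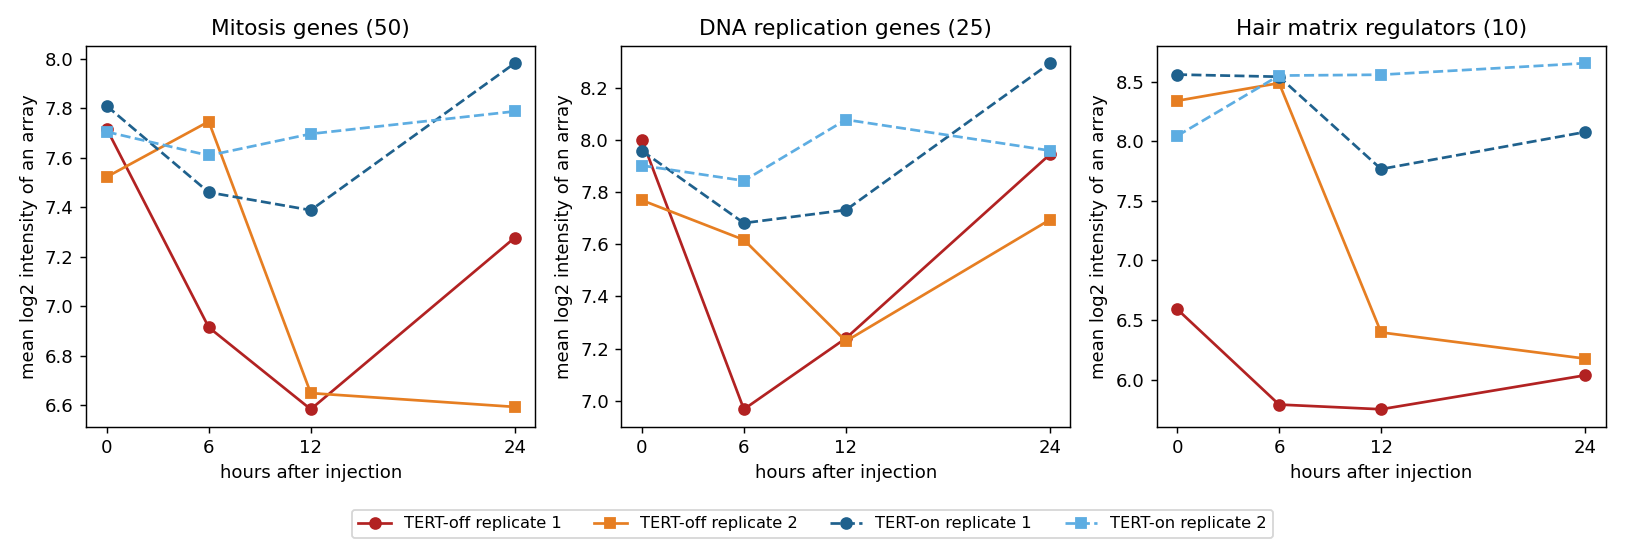
Mean log2 intensity per array of 50 mitosis genes, 25 DNA replication genes and 10 hair matrix regulators against hours after injection, 1 line per mouse (TERT-off solid, TERT-on dashed). At 12 h the mitosis genes stood at 6.58 and 6.65 in the TERT-off mice, against 7.39 and 7.70 in the TERT-on mice. The hair matrix regulators of TERT-off replicate 1 were already low at 0 h.

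By time, 0 of 50 genes were called lower at 0 h (0 also at an unadjusted p under 0.05 by limma, where 0.00795% of all genes were called lower and 4.41% were lower unadjusted), with a median of -0.11. At 6 h the median was -0.15 and 0 were called lower, against 0.596% of all genes. At an unadjusted p under 0.05, Kif2c, Bub3 and Mybl2 were lower (9.6% of all genes were) and Pttg1 was higher (13.9% of all genes were). The median was -0.997 at 12 h and -0.99 at 24 h. The genes called lower at 12 h were Aurka, Mybl2, Aurkb and Racgap1, that is 4 of 50 against 0.668% of all genes. Those at 24 h were Ccnb2, Nek2, Cenpa, Aurkb and Racgap1, 5 of 50 against 0.588%. At an unadjusted p under 0.05, 38 genes were lower at 12 h (11.8% of all genes) and 38 at 24 h (10.6%). The 4 TERT-off arrays of 12 and 24 h lay below all 4 TERT-on arrays in 28 of 50 genes, against 14.4% of all genes. With the 6 h arrays included, only Mybl2, Bub3 and Kif2c separated, 3 of 50 against 4.83% of all genes. At 6 h alone both TERT-off arrays lay below both TERT-on arrays in 7 of 50 genes, against 23.5% of all genes, and at 0 h in 15 of 50, against 18%. The counts at single times changed with the mouse left out, and so did the share of all genes called lower. At 6 h the median of the mitosis genes was 0.29 without TERT-off replicate 1 and -0.55 without TERT-off replicate 2, with 0 and 10 genes called, against 0% and 7.73% of all genes. At 12 h it was -0.96 with 5 called (1.48% of all genes) without TERT-off replicate 1, and -0.9998 with 14 called (2.65%) without TERT-off replicate 2. At 24 h it was -1.26 with 29 called (1.81%) without TERT-off replicate 1, and -0.54 with 4 called (2.13%) without TERT-off replicate 2. Without either TERT-on mouse 0 of 49 genes were called at 12 h and 0 of 49 at 24 h, as were 0% of all genes, with medians of -1.16 and -0.86 at 12 h and -0.82 and -1.09 at 24 h.

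**Figure D3:**
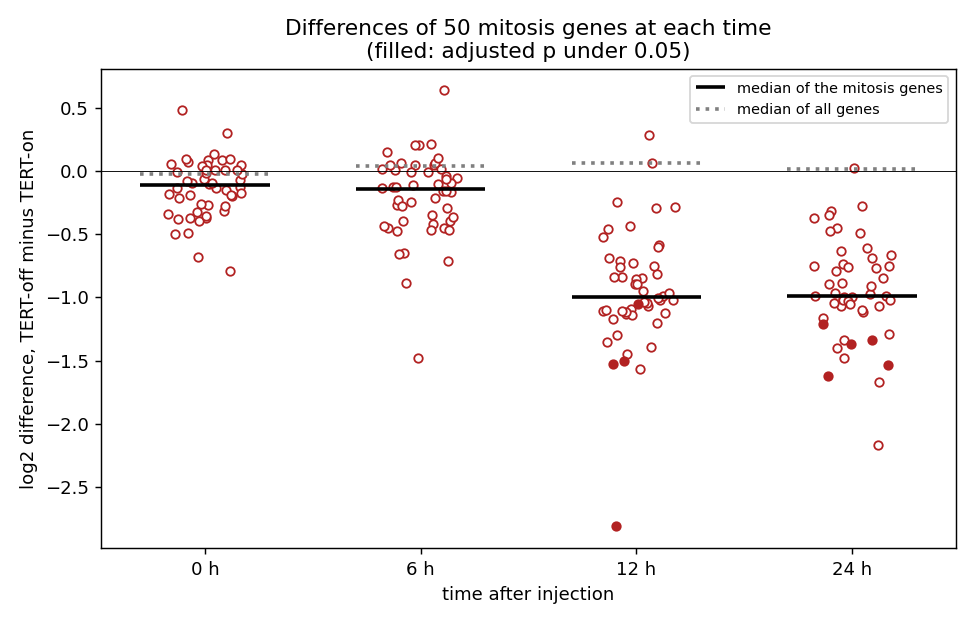
Log2 difference of 50 mitosis genes, TERT-off minus TERT-on, at 0, 6, 12 and 24 h, 1 point per gene. Filled points have an adjusted p under 0.05, solid lines give the median of the mitosis genes (-0.11, -0.15, -0.997 and -0.99) and dotted lines that of all genes.

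The contrast of 12 and 24 h with 6 h, added after seeing the data, had a median of -0.77 over the 50 genes, against 0.00 over all genes. No gene passed the adjusted threshold in it, against 0% of all genes called lower, and 20 were lower at an unadjusted p under 0.05, against 3.1% of all genes. Racgap1 had the lowest p, with -1.12 ± 0.28 (SE, adjusted p = 0.391). Within the TERT-off mice the mean of 6 to 24 h minus 0 h had a median of -0.69, and 38 genes were lower at an unadjusted p under 0.05 (8.2% of all genes) but 0 after adjustment (0.135% of all genes). Within the TERT-on mice the median was -0.15, with 0 called lower against 0.143% of all genes. At an unadjusted p under 0.05, Prc1 was lower (12.7% of all genes were) and Kif2c higher (6.94% of all genes were). The 0 h level of TERT-on replicate 1 in this contrast came from the array with the Gapdh ratio of 0.0599. The test of the difference between these changes called 0 of 50, against 0% of all genes called lower. At an unadjusted p under 0.05 it gave 6 genes lower, Mybl2, Spc24, Cdca8, Kif2c, Mad2l1 and Ube2c, against 4.13% of all genes. A difference between cohorts in the change from baseline was therefore not detectable gene by gene with these mice, although 49 of 50 estimates were negative (median -0.54).

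**Figure D4:**
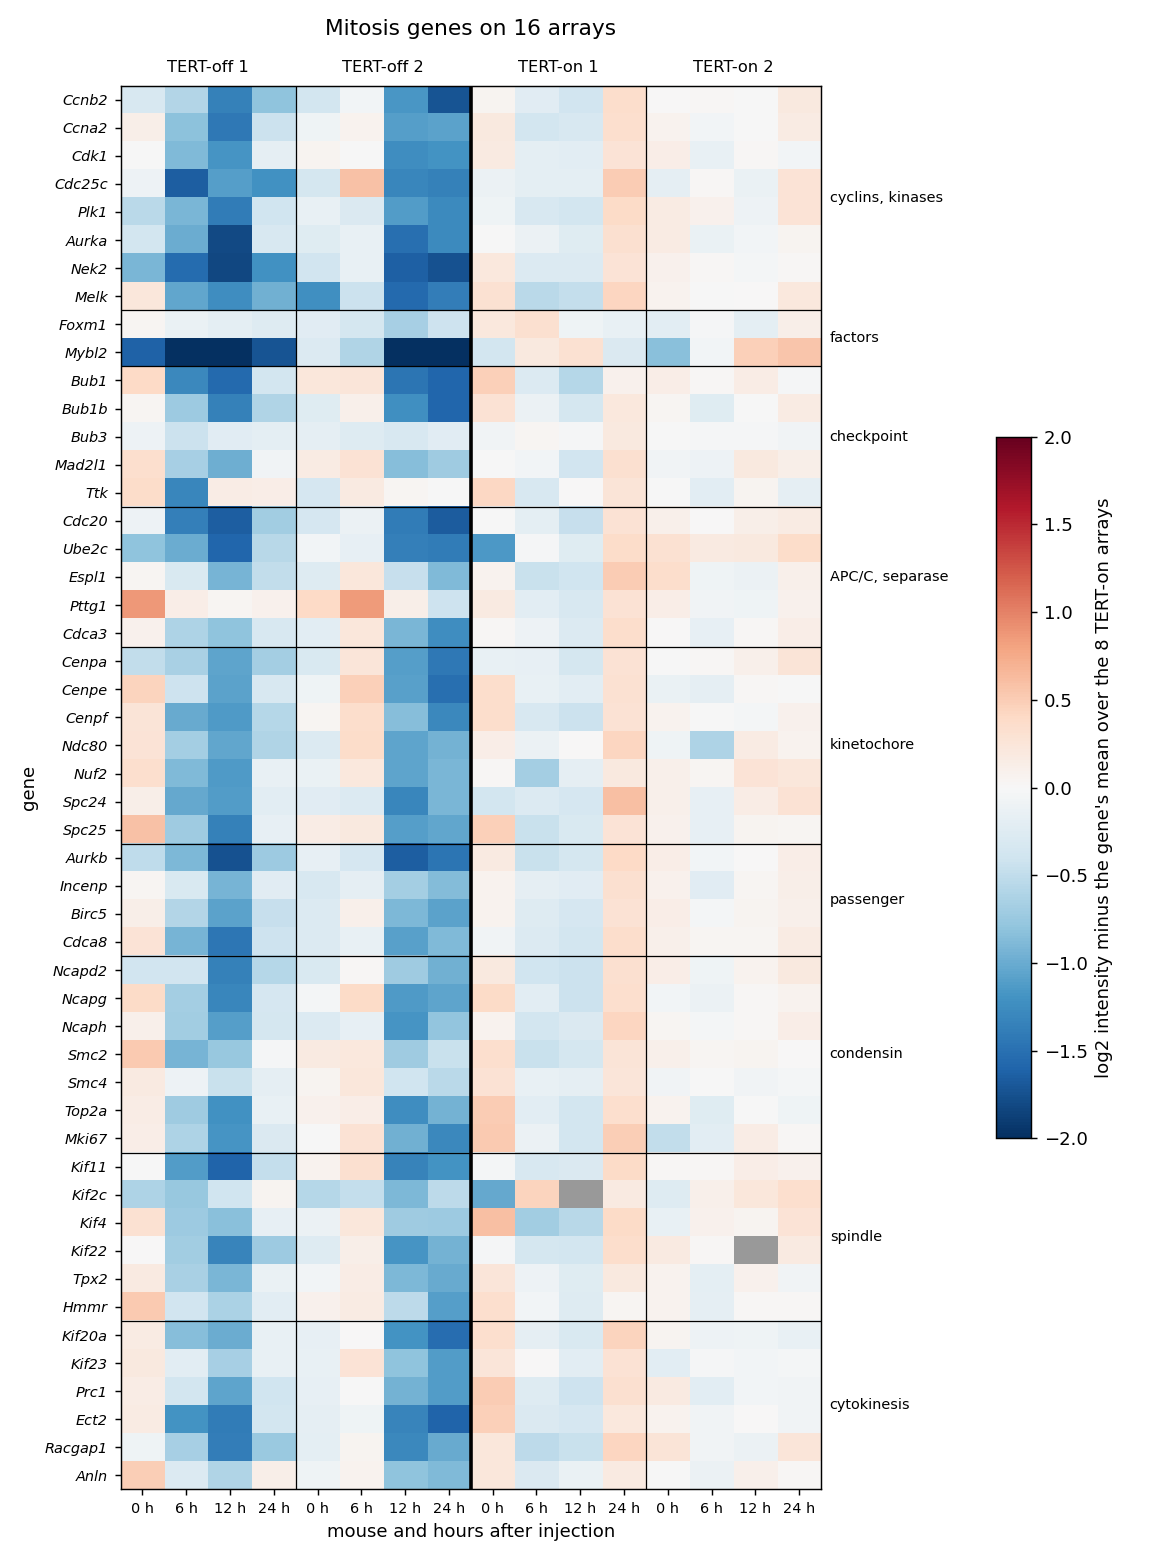
Log2 intensity of 50 mitosis genes (rows, by role) on 16 arrays (columns, TERT-off left, by mouse and hours), each minus the gene's mean over the 8 TERT-on arrays. Grey marks 2 empty cells. The 12 h columns of both TERT-off mice are low for nearly every gene, the 6 h column is low only in TERT-off replicate 1, and Mybl2, Ttk and Pttg1 depart from the common pattern.

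Among the kinases and cyclins that start mitosis every measured gene was lower, 8 of 8 with a median of -0.96. At 0 h all 8 estimates were already negative (median -0.37), with 0 called. The change from 0 h differed between cohorts by a median of -0.57, with 0 of 8 called and 0 at an unadjusted p under 0.05 (limma). Nek2 is a centrosomal kinase that separates the spindle poles (chr1:191821449-191833049, GRCm38). It had intensities at 0, 6, 12 and 24 h of 88.5, 57.2, 47.1 and 71.6 in TERT-off replicate 1 and 128, 150.3, 53.6 and 49.7 in TERT-off replicate 2, against 192, 137, 137 and 200.1 in TERT-on replicate 1 and 176, 168, 161 and 169 in TERT-on replicate 2. All 4 TERT-off arrays of 12 and 24 h lay below all TERT-on arrays, and TERT-off replicate 1 was the lowest array of its time already at 0 h. Its difference over 6 to 24 h was -1.30 ± 0.23 (SE, adjusted p = 0.00449), and at 24 h alone -1.62 ± 0.37 (SE, adjusted p = 0.0495). Cdc25c, a phosphatase that activates CDK1, gave 41.0, 14.0, 20.4 and 19.1 in TERT-off replicate 1 and 34.4, 65.6, 17.9 and 17.3 in TERT-off replicate 2, against 40.6, 38.5, 38.5 and 62.5 in TERT-on replicate 1 and 38.6, 44.6, 40.1 and 53.3 in TERT-on replicate 2 at those times. TERT-off replicate 2 at 6 h was the highest array of all 16, while the other 5 TERT-off arrays after 0 h lay below every TERT-on array. Its difference of -1.06 ± 0.32 (SE, adjusted p = 0.0305) had the widest error of the 8 genes.

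Melk, a kinase of proliferating cells, had 28.4, 37.8 and 62.0 (lowest, median and highest of the TERT-off arrays of 6 to 24 h), against 57.5, 83.8 and 112 on the TERT-on arrays, a difference of -1.04 ± 0.25 (SE, adjusted p = 0.0137). At 0 h Melk already differed by -0.68, and its change from 0 h differed between cohorts by only -0.36 ± 0.46 (SE). From 0 to 24 h it went from 98.1 to 43.0 in TERT-off replicate 1 and from 35.6 to 32.1 in TERT-off replicate 2. Aurka, which builds the spindle poles, differed by -0.98 ± 0.19 (SE, adjusted p = 0.00684) over 6 to 24 h and by -1.50 ± 0.32 (SE, adjusted p = 0.0418) at 12 h. Ccnb2, a B-type cyclin, differed by -0.94 ± 0.17 (SE, adjusted p = 0.0052) and at 24 h by -1.53 ± 0.28 (SE, adjusted p = 0.0241). The differences were of like size in the other regulators of entry. Plk1, the Polo-like kinase of entry and cytokinesis, differed by -0.89 ± 0.19 (SE, adjusted p = 0.00824), and Ccna2, the cyclin of S and G2 phase, by -0.75 ± 0.18 (SE, adjusted p = 0.0127). Cdk1 itself had 336, 392 and 788 on the TERT-off arrays, against 690.0, 741 and 957 on the TERT-on arrays over 6 to 24 h, with a difference of -0.73 ± 0.20 (SE, adjusted p = 0.0198). In TERT-off replicate 1 its level returned to 703 at 24 h, against 789 at 0 h, whereas in TERT-off replicate 2 it stayed at 346.

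Of the transcription factors that drive this program, Mybl2 had the largest difference of all 50 genes and Foxm1 did not pass the test. Mybl2 (chr2:163054327-163084688, GRCm38) encodes the MYB protein that joins the MuvB complex at G2/M promoters. It had intensities of 26.5, 17.4, 15.8 and 24.5 in TERT-off replicate 1 and 67.2, 53.3, 14.5 and 16.1 in TERT-off replicate 2, against 62.8, 92.9, 100.5 and 66.6 in TERT-on replicate 1 and 45.5, 78.1, 112 and 119 in TERT-on replicate 2 at 0, 6, 12 and 24 h. Every TERT-off array after 0 h lay below every TERT-on array after 0 h, yet TERT-off replicate 1 stood at 26.5 already at 0 h, the lowest of the 4 arrays of that time. The difference was -0.34 at 0 h, -1.48 at 6 h, -2.81 ± 0.52 (SE, adjusted p = 0.0333) at 12 h and -2.16 at 24 h, and -2.15 ± 0.32 (SE, adjusted p = 0.00278) over 6 to 24 h. Its other tested probe set, of lower mean, differed by -0.25 ± 0.21 (SE, adjusted p = 0.402), so that the size of the difference rests on 1 of 2 probe sets. On that probe set the TERT-off arrays of 12 and 24 h, at 14.5 to 24.5, lay under the table's median of 34.4. In the TERT-on mice its level at 12 h (101 and 112) was above that at 0 h (62.8 and 45.5). Foxm1, the forkhead factor of the same promoters, had 29.3, 37.4 and 42.1 on the TERT-off arrays, against 40.3, 44.6 and 58.0 on the TERT-on arrays and a difference of -0.33 ± 0.14 (SE, adjusted p = 0.104). Its values after 0 h were all under 60, not far above the table's median of 34.4.

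The promoters of these genes carried 2 elements known from cell cycle genes. The cell cycle genes homology region (CHR; TTTGAA or TTCGAA, read on both strands) is bound by the MuvB complex, and the CCAAT box (CCAAT, or ATTGG on the other strand) by NF-Y. The promoter table used here, from RefSeq (GRCm38.p6), held 42 of the 51 genes, from 250 bases before the start to 50 after, with 45 promoters in all. Cdc25c, Spc24, Ccna2, Tpx2, Smc4, Aurkb, Kif20a, Incenp and Foxm1 were not scanned. A CHR was found in 35 of 45 promoters (77.8%), against 19.2% of 32851 RefSeq promoters, and a CCAAT box in 35 of 45 (77.8%), against 37.4%. Both stood in 32 of 45 (71.1%), against 7.52% of all. The CHR matches lay near the start, with 27 of 47 beginning between -60 and +30 (57.4%), against 24.4% of the matches in all promoters. Ube2c, Cdc20, Aurka, Ccnb2 and Ect2 are shown because they had the largest differences among the genes that hold both. Mybl2 is shown because it had the largest difference of all and holds neither in this window. It was chosen after its values were seen. Capitals mark both elements and each run ends 30 bases after the start. In Aurka the CHR begins past that end, 33 bases after the start. In Ect2 another CHR, beside the one marked, begins past it as well, 40 bases after the start. The stretches are Ube2c chr2:164769679-164769958 (+ strand), Cdc20 chr4:118437314-118437593 (- strand), Aurka chr2:172370541-172370820 (- strand), Ccnb2 chr9:70421525-70421804 (- strand), Ect2 chr3:27153849-27154128 (- strand) and Mybl2 chr2:163054385-163054664 (+ strand). The start used was the 5' end of the gene for Ube2c, Cdc20 and Ccnb2, but lay 316, 375 and 308 bases inside the gene's annotated span for Aurka, Ect2 and Mybl2, and the bases before that 5' end are not shown.
Ube2c: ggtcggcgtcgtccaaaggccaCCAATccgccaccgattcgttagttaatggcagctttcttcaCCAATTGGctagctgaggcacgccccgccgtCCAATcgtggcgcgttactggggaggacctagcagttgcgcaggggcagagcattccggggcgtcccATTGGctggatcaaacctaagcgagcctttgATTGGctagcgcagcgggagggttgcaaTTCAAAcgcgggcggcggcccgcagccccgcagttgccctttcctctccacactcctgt
Cdc20: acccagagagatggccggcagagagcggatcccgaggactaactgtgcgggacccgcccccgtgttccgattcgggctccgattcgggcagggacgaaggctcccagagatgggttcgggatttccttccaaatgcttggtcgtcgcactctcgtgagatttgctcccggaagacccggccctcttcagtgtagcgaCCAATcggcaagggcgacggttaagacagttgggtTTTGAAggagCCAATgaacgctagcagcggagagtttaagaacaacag
Aurka: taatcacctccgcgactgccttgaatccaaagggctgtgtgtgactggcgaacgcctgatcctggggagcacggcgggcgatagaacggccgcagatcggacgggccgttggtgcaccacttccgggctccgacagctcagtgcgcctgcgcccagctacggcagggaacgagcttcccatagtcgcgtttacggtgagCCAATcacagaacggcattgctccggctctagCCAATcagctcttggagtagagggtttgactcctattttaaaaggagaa
Ccnb2: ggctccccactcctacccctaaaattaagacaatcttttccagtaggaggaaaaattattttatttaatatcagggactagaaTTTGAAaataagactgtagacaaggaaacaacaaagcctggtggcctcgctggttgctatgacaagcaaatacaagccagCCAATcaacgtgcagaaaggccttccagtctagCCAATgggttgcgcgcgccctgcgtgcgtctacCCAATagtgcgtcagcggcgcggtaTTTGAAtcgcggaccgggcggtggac
Ect2: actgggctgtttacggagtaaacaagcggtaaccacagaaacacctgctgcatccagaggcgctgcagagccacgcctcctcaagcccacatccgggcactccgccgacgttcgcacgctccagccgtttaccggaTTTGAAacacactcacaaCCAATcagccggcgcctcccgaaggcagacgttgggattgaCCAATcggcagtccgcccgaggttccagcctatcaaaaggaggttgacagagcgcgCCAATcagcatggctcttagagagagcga
Mybl2: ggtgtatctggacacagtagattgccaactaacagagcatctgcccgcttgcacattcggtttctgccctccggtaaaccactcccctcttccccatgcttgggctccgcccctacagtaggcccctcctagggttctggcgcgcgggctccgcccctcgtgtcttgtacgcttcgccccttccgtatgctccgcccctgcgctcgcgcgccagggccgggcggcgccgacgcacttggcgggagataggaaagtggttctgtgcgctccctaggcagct

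A match is a string of letters and was not tested as a binding site. Among the mitosis genes, 20 of 29 with both elements and 7 of 12 without both were called lower. Over all tested genes with a promoter sequence, 137 of 661 with both elements were called lower over 6 to 24 h (20.7%), against 1145 of 9447 without both (12.1%). Both counts include the mitosis genes.

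**Figure D5:**
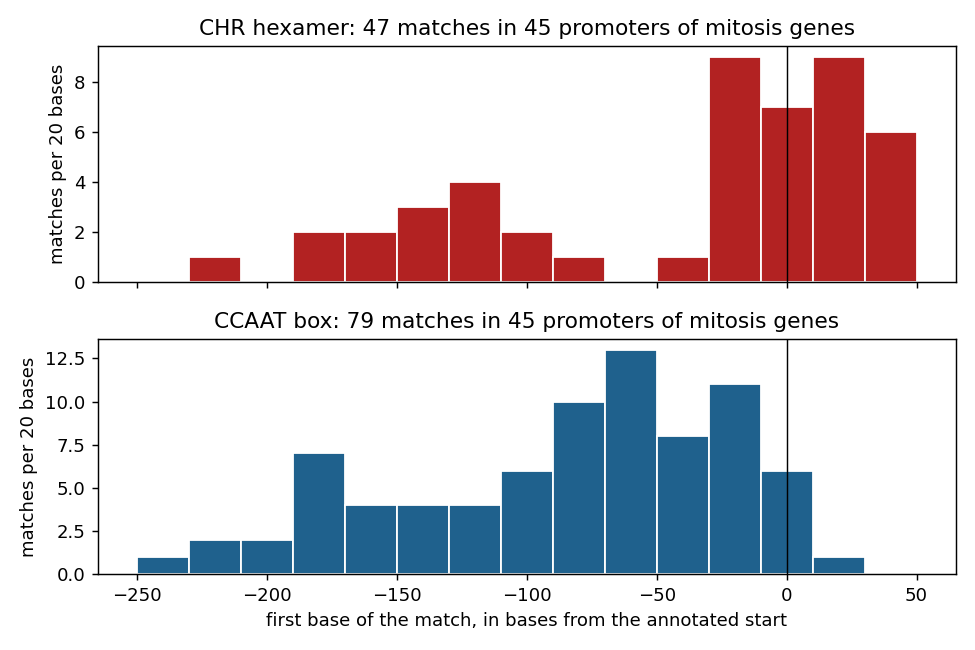
Distance from the annotated start, in bases, of the first base of each CHR match (upper panel, 47) and each CCAAT match (lower panel, 79) in 45 promoters of mitosis genes, as matches per 20 bases. The CHR matches gather around the start and the CCAAT matches upstream of it, with medians of -17 and -71.

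The spindle checkpoint moved unevenly, with 3 of 5 genes lower (median -0.51). Bub1, a checkpoint kinase at the kinetochore, had intensities at 0, 6, 12 and 24 h of 179, 55.4, 45.8 and 104 in TERT-off replicate 1 and 158, 159, 48.8 and 44.9 in TERT-off replicate 2, against 188, 112, 90.6 and 143 in TERT-on replicate 1 and 149, 137, 149 and 133 in TERT-on replicate 2. The TERT-off arrays of 12 h were both below 50, and so was replicate 2 at 24 h, whereas no TERT-on array was below 90. TERT-off replicate 2 at 6 h, at 159, lay above all 6 TERT-on arrays after 0 h. The difference of -0.90 ± 0.29 (SE, adjusted p = 0.041) was near the threshold. Bub1b, its pseudokinase partner that inhibits CDC20, had 57.5, 89.2 and 187 on the TERT-off arrays, against 136, 167 and 201 on the TERT-on arrays over 6 to 24 h, a difference of -0.84 ± 0.20 (SE, adjusted p = 0.0124). Bub3, which anchors both, had 575, 652 and 677 on the TERT-off arrays, against 739, 759 and 885 on the TERT-on arrays and a difference of -0.29 ± 0.07 (SE, adjusted p = 0.0169). Its other tested probe set showed no such difference, with -0.02 ± 0.10 (adjusted p = 0.905). Mad2l1 and Ttk, the MAD2 and MPS1 of the checkpoint, did not pass, with -0.51 ± 0.19 (SE, adjusted p = 0.0664) and -0.07 ± 0.24 (SE, adjusted p = 0.859). Ttk was low on 1 TERT-off array, replicate 1 at 6 h (49.5), and on the other 5 lay between 122 and 139, within the 97.8 to 146 of the TERT-on arrays. Without TERT-off replicate 1 its difference turned to 0.14.

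Among the genes of anaphase, Ube2c and Cdc20 carried the change. Ube2c is the ubiquitin-conjugating enzyme of the anaphase-promoting complex, and Cdc20 is the activator that the checkpoint restrains. Ube2c had intensities of 392, 345, 228 and 468 in TERT-off replicate 1 and 659, 609, 267 and 260.5 in TERT-off replicate 2, against 309, 676, 581 and 887 in TERT-on replicate 1 and 846, 777, 781 and 879 in TERT-on replicate 2 at 0, 6, 12 and 24 h. TERT-on replicate 1 at 0 h was out of line with that mouse's later arrays for Ube2c. This array also stood apart in RNA quality, with a ratio of 5' to 3' Gapdh signal of 0.0599, against 0.977 to 1.12 on the others; the part of RNA quality in its values was not tested. Ube2c differed by -1.15 ± 0.27 (SE, adjusted p = 0.0125). Cdc20 had 428, 179, 147 and 284 in TERT-off replicate 1 and 364, 426, 175 and 145 in TERT-off replicate 2, against 458, 403, 333 and 559.9 in TERT-on replicate 1 and 492, 463, 499 and 515 in TERT-on replicate 2, with both TERT-off mice under 180 at 12 h and no TERT-on array under 330. Its difference was -1.13 ± 0.24 (SE, adjusted p = 0.00826). Cdca3, a trigger of mitotic entry through WEE1 turnover, differed by -0.60 ± 0.19 (SE, adjusted p = 0.0368). This call rests on 1 of 2 probe sets, since the other gave 0.07 ± 0.17 (adjusted p = 0.805). Espl1 (separase) gave -0.41 ± 0.16 (SE, adjusted p = 0.0822). Pttg1 (securin, its inhibitor) was the only gene with a positive estimate, 0.19 ± 0.15 (SE, adjusted p = 0.383). Its intensities were 806, 482, 453 and 466 in TERT-off replicate 1 and 579.7, 795, 478 and 332 in TERT-off replicate 2, against 498, 380.4, 352 and 537 in TERT-on replicate 1 and 484, 417, 416 and 468 in TERT-on replicate 2, so that the TERT-off mice were higher at 0 h and lower at 24 h, where replicate 1 lay just under the lower TERT-on array. The sign rests on the probe set, since 2 of its 3 tested probe sets pointed lower and the mean of all 3 gave -0.048.

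At the kinetochore, 3 of 7 genes were lower (median -0.65), with all 7 lower at an unadjusted p under 0.05. Spc24, a subunit of the NDC80 complex that grips microtubules, had 148, 66.6, 62.3 and 118 in TERT-off replicate 1 and 116, 112, 54.8 and 72.2 in TERT-off replicate 2, against 105, 112, 107 and 206 in TERT-on replicate 1 and 146, 121, 150.4 and 165 in TERT-on replicate 2 at 0, 6, 12 and 24 h. The highest TERT-on array was replicate 1 at 24 h, and the TERT-off arrays of 12 h were the lowest of all. Its difference was -0.85 ± 0.19 (SE, adjusted p = 0.00995). Cenpa, the histone H3 variant that marks the centromere, had 213, 191, 144 and 186 in TERT-off replicate 1 and 241, 355, 138 and 111 in TERT-off replicate 2, against 268, 267, 234 and 367 in TERT-on replicate 1 and 298, 303, 319.9 and 357 in TERT-on replicate 2. At 24 h the groups lay far apart, -1.33 ± 0.30 (SE, adjusted p = 0.0466), and over 6 to 24 h they differed by -0.81 ± 0.18 (SE, adjusted p = 0.0108). Ndc80, the subunit that names that complex, differed by -0.65 ± 0.21 (SE, adjusted p = 0.0438). The other 4 did not pass: Nuf2 (-0.63 ± 0.23, adjusted p = 0.062) and Spc25 (-0.60 ± 0.21, adjusted p = 0.0562) of the same complex, the kinesin Cenpe (-0.62 ± 0.24, adjusted p = 0.0738), and Cenpf (-0.68 ± 0.23, adjusted p = 0.052), which links the kinetochore to dynein. Another probe set of Cenpe was called (-0.91 ± 0.30, adjusted p = 0.043), while another of Cenpf gave 0.03 ± 0.10 (adjusted p = 0.856).

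All 4 genes of the chromosomal passenger complex, which corrects faulty attachments and guides cytokinesis, were lower (median -0.72). Its kinase Aurkb (chr11:69045624-69051664, GRCm38) was, with Racgap1, called at both 12 and 24 h. Aurkb had intensities of 70.9, 54.1, 30.1 and 61.1 in TERT-off replicate 1 and 90.1, 80.2, 32.2 and 36.6 in TERT-off replicate 2, against 114, 74.5, 79.4 and 134 in TERT-on replicate 1 and 111, 97.0, 102 and 111 in TERT-on replicate 2 at 0, 6, 12 and 24 h. The 2 TERT-off arrays of 12 h and replicate 2 at 24 h were under 40, and no TERT-on array was under 70. The difference was -1.53 ± 0.28 (SE, adjusted p = 0.0317) at 12 h, -1.37 ± 0.28 (SE, adjusted p = 0.0363) at 24 h and -1.09 ± 0.17 (SE, adjusted p = 0.0034) over 6 to 24 h, with both of its tested probe sets called. Cdca8 (borealin), which with survivin targets the complex to centromeres, had 113, 165 and 278 on the TERT-off arrays, against 239, 317 and 395 on the TERT-on arrays over 6 to 24 h, a difference of -0.82 ± 0.18 (SE, adjusted p = 0.00941). Birc5 (survivin) differed by -0.63 ± 0.16 (SE, adjusted p = 0.0175), and the scaffold Incenp by -0.50 ± 0.13 (SE, adjusted p = 0.0181).

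In the group that shapes the chromosomes, 4 of 7 genes were lower (median -0.61). The non-SMC subunits of condensin I, Ncaph (-0.70 ± 0.15 (SE, adjusted p = 0.00795)), Ncapd2 (-0.61 ± 0.15, adjusted p = 0.016) and Ncapg (-0.64 ± 0.21, adjusted p = 0.0476) were called lower. Its SMC subunits Smc2 (-0.37 ± 0.21, adjusted p = 0.198) and Smc4 (-0.20 ± 0.11, adjusted p = 0.194), which condensin II shares, were not, although another probe set of Smc2 gave -0.91 ± 0.35 (adjusted p = 0.0725). Whether the 2 kinds of subunit differ was not tested. Ncaph, the kleisin of condensin I, had 272, 157, 118 and 199 in TERT-off replicate 1 and 209, 227, 112 and 148 in TERT-off replicate 2, against 267, 198, 208 and 343 in TERT-on replicate 1 and 262, 248, 257 and 278 in TERT-on replicate 2 at 0, 6, 12 and 24 h, and the lowest 4 of these 16 values were TERT-off arrays. Top2a, the topoisomerase that untangles sister DNA, differed by -0.59 ± 0.19 (SE, adjusted p = 0.0399). Mki67, the Ki-67 antigen at the chromosome surface, had 725, 431, 291 and 541 in TERT-off replicate 1 and 656, 804, 337 and 269 in TERT-off replicate 2, against 949.9, 608, 513 and 926 in TERT-on replicate 1 and 468, 568, 728 and 667 in TERT-on replicate 2. It did not pass the test (-0.67 ± 0.25 (SE, adjusted p = 0.069)), with TERT-off replicate 2 at 6 h at 804 and the TERT-on arrays after 0 h between 513 and 926. Mki67 was below its 0 h level in both TERT-off mice at 12 and 24 h.

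Of the spindle motors and assembly factors 3 of 6 were lower (median -0.62). Kif11, the plus-end motor that pushes the poles apart, had 140.2, 65.1, 46.5 and 101 in TERT-off replicate 1 and 148, 177, 56.3 and 61.8 in TERT-off replicate 2, against 137, 113, 116 and 185 in TERT-on replicate 1 and 144, 144, 156 and 149.6 in TERT-on replicate 2 at 0, 6, 12 and 24 h. Its lowest values were the 12 h arrays of the TERT-off mice and replicate 2 at 24 h. Its difference was -0.90 ± 0.24 (SE, adjusted p = 0.0195). Kif2c, a kinesin that depolymerises microtubules at centromeres, behaved otherwise. It had 149, 134, 174 and 237 in TERT-off replicate 1 and 155, 165, 122 and 159 in TERT-off replicate 2, against 112, 311, an empty cell and 259 in TERT-on replicate 1 and 191, 245, 268 and 289 in TERT-on replicate 2. All TERT-off arrays after 0 h were below the 5 TERT-on arrays with a value. TERT-off levels were, however, above those of 0 h in replicate 1 at 12 and 24 h and in replicate 2 at 6 and 24 h. The TERT-on levels after 0 h were above those of 0 h, where replicate 1 (112) is the array with the Gapdh ratio of 0.0599. The difference of Kif2c, -0.75 ± 0.19 (SE, adjusted p = 0.0183), was fitted without the empty cell, as was that of the chromosome-arm motor Kif22, -0.71 ± 0.17 (SE, adjusted p = 0.0131). Tpx2 (-0.53 ± 0.19, adjusted p = 0.0569), which activates Aurora A, the hyaluronan receptor and spindle protein Hmmr (-0.38 ± 0.18, adjusted p = 0.133) and the chromokinesin Kif4 (-0.41 ± 0.25, adjusted p = 0.242) did not pass. For Hmmr 1 of its other 2 probe sets was called (-0.60 ± 0.19, adjusted p = 0.0342).

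Of the central spindle and cytokinesis genes 3 of 6 were lower (median -0.63). Racgap1 and Ect2 act in sequence, the first recruiting the second, which activates RhoA for the contractile ring. Racgap1 had intensities of 135, 90.8, 54.9 and 85.6 in TERT-off replicate 1 and 125, 149, 59.0 and 71.7 in TERT-off replicate 2, against 168, 100.3, 105 and 194 in TERT-on replicate 1 and 171, 137, 132 and 169.9 in TERT-on replicate 2 at 0, 6, 12 and 24 h. Its difference was -1.05 ± 0.24 (SE, adjusted p = 0.0483) at 12 h, -1.21 ± 0.24 (SE, adjusted p = 0.0311) at 24 h and -0.76 ± 0.15 (SE, adjusted p = 0.0063) over 6 to 24 h. Ect2 had 143, 55.6, 48.1 and 98.4 in TERT-off replicate 1 and 112, 120.0, 50.9 and 42.1 in TERT-off replicate 2, against 177, 105, 101 and 148 in TERT-on replicate 1 and 133, 122, 129 and 121 in TERT-on replicate 2, a difference of -0.91 ± 0.25 (SE, adjusted p = 0.0227). For both genes the 4 TERT-off arrays of 12 and 24 h lay below all TERT-on arrays. Prc1, which bundles the midzone microtubules, differed by -0.53 ± 0.16 (SE, adjusted p = 0.0292). The midzone motors Kif20a (-0.72 ± 0.25, adjusted p = 0.0548) and Kif23 (-0.44 ± 0.18, adjusted p = 0.0918) and the ring scaffold Anln (-0.36 ± 0.18, adjusted p = 0.161) did not pass.

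Several probe sets measured 32 of the 50 genes. In 29 of these 32 every tested probe set pointed lower. Of the 40 further probe sets, 38 were negative, 18 were called lower and 0 higher, against 12.6% and 16.9% of all genes. Among the genes called lower, a further probe set did not pass for Bub1b, Bub3, Cdc25c, Cdca3, Cenpa, Incenp, Mybl2, Ncapd2 and Top2a. It was -0.31 for Bub1b, -0.35 for Incenp, -0.23 for Ncapd2 and -0.18 for Top2a.

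A wider list of 111 other mitosis genes, of which 105 were tested, had a smaller median. Over 6 to 24 h 26 were lower and 1 was higher, against 12.6% and 16.9% of all genes, with a median of -0.31. The median was 0.00 at 6 h, -0.42 at 12 h and again -0.42 at 24 h. The most negative called differences were Spag5 (-1.18 ± 0.29, SE), a spindle protein, and Lmnb1 (-1.03 ± 0.28), lamin B1 of the nuclear envelope. Next came Knl1 (-0.99 ± 0.24), a kinetochore scaffold, and Stil (-0.94 ± 0.19), needed for centriole duplication. Ska1 (-0.92 ± 0.21), a microtubule coupler, and Pbk (-0.84 ± 0.21), a mitotic kinase, followed. The gene called higher was Ckap5 (0.47 ± 0.14), a microtubule polymerase. By role, 8 of 28 kinetochore genes, 7 of 26 spindle genes and 7 of 22 genes of entry and exit were lower. Of cohesin and condensin II genes it was 1 of 14 (median -0.03) and of the anaphase-promoting complex 3 of 15 (median -0.12). With so few genes neither of these counts lies far from the 12.6% of all genes. Whether the roles differ was not tested. Cohesin and the anaphase-promoting complex also act outside mitosis.

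DNA replication genes act before mitosis, in S phase. Of 25 tested, 15 were lower over 6 to 24 h (median -0.49), against 12.6% of all genes. The median was -0.48 at 6 h, -0.73 at 12 h and -0.30 at 24 h. From 12 to 24 h they moved up in 25 of 25 genes in TERT-off replicate 1 and in 23 of 25 in TERT-off replicate 2, in which 22 of 50 mitosis genes did. In the contrast of 12 and 24 h with 6 h their median was -0.05, with 1 of 25 lower at an unadjusted p under 0.05, against the 20 of 50 mitosis genes given above. No test of the difference between the 2 lists was made.

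Other cell types moved with these results, and their part in them was not tested. Among all genes, 12.6% were called lower and 16.9% higher over 6 to 24 h. Hair matrix regulators were lower in 7 of 10 (median -2.21), with mean log2 intensities over 6 to 24 h of 5.75 to 8.49 on TERT-off arrays and 7.77 to 8.65 on TERT-on arrays. Hair shaft keratins were lower in 9 of 9 (median -5.08; 3.78 to 10.9 and 8.91 to 11.3) and melanocyte genes in 5 of 5 (median -2.15; 6.17 to 9.90 and 8.52 to 10.3). Of 8 basal keratinocyte genes 0 were lower and 2 higher (median 0.23; 10.2 to 10.7 and 10.2 to 10.4). Neutrophil genes were higher in 6 of 6 (median 1.88; 5.90 to 9.20 and 5.14 to 6.43), macrophage genes in 6 of 6 (median 1.39; 9.25 to 10.6 and 8.60 to 9.54) and fibroblast genes in 5 of 6 (median 0.58; 11.4 to 12.0 and 10.5 to 11.4). Endothelial genes were higher in 4 of 5 (median 0.65), adipocyte genes in 2 of 4 (median 0.43) and T cell genes in 1 of 2 (median 0.99), and of 6 suprabasal genes only Flg was called, lower (median 0.07). At 0 h TERT-off replicate 1 was already low in hair matrix regulators, 6.59 against 8.04 to 8.56 on the other 3 arrays, while its mitosis genes stood at 7.72, between the 7.52 to 7.81 of those arrays. Its hair shaft keratins were low then as well, at 4.19 against 9.28 to 11.2. The 0 h medians of the differences were -1.68 for hair shaft keratins, 1.24 for neutrophil genes and 1.02 for macrophage genes. In each list 0 were called. At an unadjusted p under 0.05 (limma), 0 hair shaft keratins were lower, against 4.41% of all genes. By the same measure 4 of 6 neutrophil and 3 of 6 macrophage genes were higher, against 441 of 12580 genes. For basal keratinocyte genes the 0 h median was -0.45, with 8 of 8 negative and 0 called. At an unadjusted p under 0.05 (limma) 4 were lower, against 4.41% of all genes. Their change from 0 h differed between cohorts by a median of 0.62, with 0 called. At an unadjusted p under 0.05 (limma) 5 of 8 were higher in it, against 1282 of 12580 genes. The targeted gene, Tert, read 185 and 199.9 at 0 h and 8.32 to 16.1 afterwards in TERT-off skin, against 357 and 216 at 0 h and 22.6 to 64.6 afterwards in TERT-on skin, so that its signal dropped in both cohorts and was lower after 0 h on every TERT-off array.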

How the data were processed

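Affymetrix arrays of 16 dorsal skin biopsies were analysed. The authors deposited, for each of 45101 probe sets, a linear intensity made in dChip by invariant-set normalization and a model of perfect-match minus mismatch signal; the image files and detection calls were not used here. Intensity carries no read depth, so the number of arrays limits the precision. Intensities below 7.71, the 20th percentile, were set to 7.71 before log2 was taken. The filter kept the 25563 probe sets that exceeded the table's median (34.4) on 2 or more arrays. Raising low values understates a fall of dim genes.

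One limma fit (3.58.1, R 4.3.3, statmod 1.5.0) had a mean for each of 8 groups, moderation with an intensity trend, and the mouse as random block with a consensus correlation of 0.0728. The two-sided p-values were adjusted over all kept probe sets (Benjamini-Hochberg) with a threshold of 0.05. The fit was run on simulated data with independent arrays. It recovered 84 of 100 probe sets lowered by 1 on the log2 scale and 98 of 100 lowered by 2, with 7 false calls. The simulation held no spread between mice, so it cannot show how the calls fare with 2 mice per cohort. The genes given in full were the 2 of each role with the largest difference, and all that did not pass are named. Promoters came from RefSeq. The mitosis genes, lists and tests were chosen with earlier results of these data known. Deviations of the replicate numbers correlated within TERT-off (0.12 to 0.64) but not steadily within TERT-on (-0.15 to 0.32) or between cohorts (-0.13 to 0.10), so numbers pair no mice across cohorts. The alternatives covered the floor, the filter, scaling, blocks, the trend, probe sets and each mouse left out. Figures were drawn with matplotlib 3.10.9.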

Additional observations from a re-analysis of the deposited data

Results flagged for a closer look

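The change of the mitosis genes from 0 to 24 h had opposite signs in the cohorts, although it was small in the TERT-on mice. Its median over the 50 genes was -0.45 and -0.98 in the TERT-off mice, against 0.13 and 0.05 in the TERT-on mice, and the means of the cohorts differed by -0.81. In each TERT-on mouse 18 of 50 genes were nonetheless lower at 24 h, and the 0.13 is measured from the 0 h array with a Gapdh 5' to 3' ratio of 0.0599. This difference at 24 h was not tested over the genes together; per gene, the test of the change over 6 to 24 h called 0 of 50 (6 at an unadjusted p under 0.05, limma).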

How the results depend on the processing

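The limits lie in 2 mice per cohort: with 1 of them left out the lone mouse is assumed to vary like the other cohort, and the TERT-off mice differed at 6 h. Of the mitosis genes called lower over 6 to 24 h (32), the counts stayed within 1.5 times under every alternative except mice left out (0 to 41). The median of -0.67 was -0.60 with log2(value + 16) and -0.73 with arrays centred on their medians, and -0.72 to -0.64 with mice left out. Centring turned the split over all genes to 2120 lower and 1757 higher, against 1588 and 2122. At 12 h (4 called) the count was 0 without a filter, 2 without a trend and 9 with the replicate number as a fixed block, and at 24 h (5 called) it was 0, 3 and 8, and 3 with all probe sets of a gene averaged. Without the 0 h array of TERT-on replicate 1, it was 2 at 12 h and 3 at 24 h. With mice left out the counts were 0 to 14 at 12 h, 0 to 29 at 24 h, 0 to 10 at 6 h, and 0 to 42 for the 105 other mitosis genes (26). The replicate block gave 40 lower over 6 to 24 h, and arrays taken as independent gave 40 as well. Among single genes the sign turned for Ttk without TERT-off replicate 1 (-0.28 to 0.14 with mice left out) and for Pttg1 with probe sets averaged (-0.048); the causes were not tested.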
